A study of Homo sapiens with 6 samples.

Results

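The results describe 2 of the 6 libraries of a study of how reverse transcription reads pseudouridine in ribosomal RNA. In both, RNA from HEK293T/17, an established human embryonic kidney line, had been treated with CMC and was copied by SuperScript III. They differ in the divalent cation given to the enzyme, manganese in the library labelled SIIIRTMn +CMC and magnesium in SIIIRTMg +CMC. The RNA was total RNA over 200 nt, and it was fragmented before CMC and ligated to a 3′ adapter afterwards. The same pair of cations on mock-treated RNA (SIIIRTMn -CMC and SIIIRTMg -CMC) gives the background of each value. The pair copied by HIV reverse transcriptase with magnesium (HIVRT +CMC and HIVRT -CMC) picks out positions where CMC raised stops or mismatches, without using either library compared. There is 1 library per combination. Each difference is therefore between 2 libraries, it has no replicate check, and cation and library cannot be told apart.

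Positions of 18S and 28S rRNA with at least 100 crossing reads in both CMC libraries were kept, which left 6935 of 6939 (1154 U, 1214 A, 2192 C and 2375 G). The stop share divides the stops at a position by stops and crossing reads there, and the mismatch share divides reads with a base other than the reference by all crossing reads, both in percent. Differences are manganese minus magnesium, in percentage points. Of the U, 103 are at positions listed as pseudouridine (Ψ) from general knowledge, 2 carry another listed modification and 1049 are unlisted. Ψ here means such a listed position, and positions count from 1 in the deposited rRNA sequences.

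Pseudouridine is the C-glycoside isomer of uridine, and enzymes guided by small RNAs place it at defined positions of rRNA. It pairs with adenosine as uridine does, so a reverse transcriptase copies it without a trace. CMC, a carbodiimide, attaches a bulky group to the base-pairing edge of uridine, guanosine and Ψ, and is kept longest by Ψ under alkali. Against such an adduct the enzyme may stop, put in a wrong base, or copy correctly, and manganese in place of magnesium is known to loosen the base selection of many polymerases. The labels describe no alkaline step, so adducts on plain U and G may still be present.

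The sequences below are those on which the results turn, with 10 nt of the deposited reference on each side. They are written 5′ to 3′ as DNA, and the capital T is the U or Ψ that was measured. The enzyme moves from right to left. The first set is of Ψ where the stop share was lower with manganese and matching reads gained most of what the stops lost.
Ψ3844 of 28S: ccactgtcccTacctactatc
Ψ1582 of 28S: tggaggtccgTagcggtcctg
Ψ815 of 18S: ttgaaaaaatTagagtgttca
The second set is of Ψ where mismatched reads gained much or all of what the stops lost, though at Ψ1081 matching reads gained more.
Ψ1081 of 18S: gttccgaccaTaaacgatgcc
Ψ34 of 18S: catatgcttgTctcaaagatt
Ψ4471 of 28S: cctatcattgTgaagcagaat
Ψ1643 of 18S: aacgaggaatTcccagtaagt
Ψ3734 of 28S: agaaattcaaTgaagcgcggg
The third set is of U and Ψ where the stop share fell and stops 1 nt further 5′ rose, so the base that gained stops is the one just left of the capital.
U555 of 28S: ccgccctcccTtcccccgccg
Ψ1792 of 28S: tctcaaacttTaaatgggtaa
U3468 of 28S: ccgccccccgTtcccccctcc
Ψ4532 of 28S: gagctgggttTagaccgtcgt
The last set is of Ψ where the stop share stayed high or rose with manganese.
Ψ1367 of 18S: atttgtctggTtaattccgat
Ψ1238 of 18S: agcctgcggcTtaatttgact

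Depth was alike in the libraries compared. The median position was crossed by 84243 reads with manganese and 77272 with magnesium, and each Ψ by at least 7069. At Ψ the 95% interval of a difference was at most ±1.13 points for stops and ±0.572 points for mismatches (Newcombe), which covers counting error only, since reads amplified without molecular identifiers are not independent molecules. A call requires a difference of at least 5 points and an adjusted value under 0.05 in Fisher's exact test (two-sided, Benjamini-Hochberg over the 6935 positions). The test alone passed at 5885 positions for stops and 6363 for mismatches, so the 5-point bar decides. Over all positions 1.12% of crossing bases were mismatched with manganese and 0.277% with magnesium, against 0.740% and 0.190% in the mock pair.

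With manganese, stops were lower mainly at U. The stop share was called lower at 323 positions, 4.66% of those tested, and 244 of the 323 were U. It was called higher at 247 positions (3.56%), of which 24 were U. With magnesium the median stop share was 6.25% at U, against 1.40% at A, 1.16% at C and 1.71% at G. Fewer A, C and G could therefore fall by 5 points. The median difference was -1.54 points at U, against 0.338 at A, 0.331 at C and 0.125 at G. With the mock difference taken off, these medians were -1.69, 0.189, 0.125 and -0.0672, so the sign at G turned. G, which CMC also modifies, had 50 positions lower and 77 higher. In the mock pair U differed by a median of 0.168 points. There, 67 positions (0.969%) were lower and 89 (1.29%) higher, and 36 of the 323 lower positions on CMC-treated RNA, 9 of them U, were lower in the mock pair too.

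**Figure D1:**
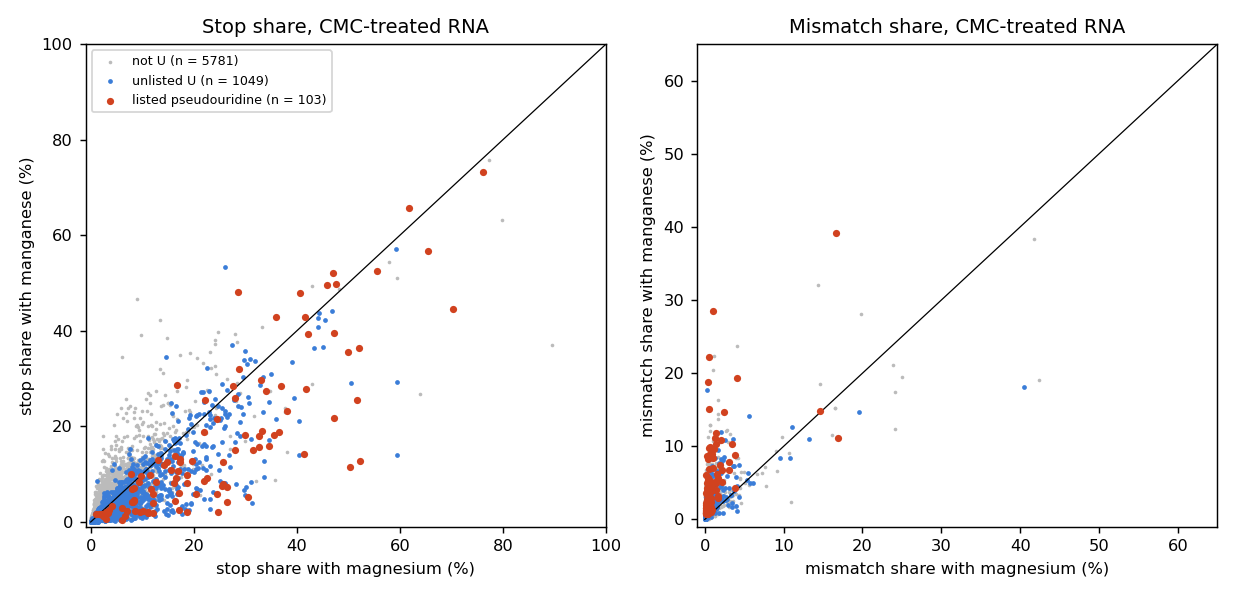
Each point is 1 rRNA position on CMC-treated RNA, with its stop share (left) or mismatch share (right) with magnesium on the horizontal and with manganese on the vertical axis, both in percent. The 103 listed Ψ lie mostly below the diagonal for stops, at 88 positions, and above it for mismatches, at 102 positions, as do 6716 of all 6935 positions for mismatches.

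The 103 Ψ had a larger difference than the other U. Their stop share ran from 1.08% to 76.2% with magnesium (median 20.5%) and from 0.483% to 73.1% with manganese (median 10.8%). Without CMC the medians were 1.88% and 2.32%. The share was lower with manganese at 88 of 103, and the median difference was -6.21 points (quartiles -14.1 and -1.65). The call was lower at 54 (52.4%), higher at 5 and absent at 44, against 189 lower (18.0%) and 18 higher of the 1049 unlisted U, whose median difference was -1.37 points. Unlisted U also started lower, with median stop shares of 5.61% with magnesium and 3.62% with manganese, so fewer of them could fall by 5 points. As a ratio of manganese to magnesium the medians were closer, 0.584 at Ψ and 0.704 at unlisted U. None of the 103 was called for stops in the mock pair.

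Mismatches went up at the same Ψ list. The median mismatch share was 0.555% with magnesium and 4.04% with manganese, and it was higher with manganese at 102 of 103, as it was at 1017 of 1049 unlisted U and 6716 of all 6935 positions. It was called higher at 27 Ψ, of 125 such positions in all (1.80% of those tested), and called lower at 1 Ψ, of 8 in all (0.115%). The 125 became 56 with the mock difference taken off and 80 with positions of 5% mock mismatch or more left out, the lower calls became 22 and 1, and 33 of the 125 were called higher in the mock pair too. No Ψ passed 1.71% mismatch in either mock library. Without CMC the medians at Ψ were 0.0561% and 0.116%, and 75 positions (1.09%) were called higher and 8 (0.116%) lower. Of the 27 Ψ, 16 were also lower for stops, 10 had no call for stops and 1 was higher. The other 38 Ψ with a lower stop share had no mismatch call.

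Among reads aligned without gaps, a stop that is lost can become any of 3 outcomes. Reads that crossed with a deletion are not seen and enter none of them. A read may cross with the matching base, cross with a mismatch, or copy the position and stop at the next base, 1 nt 5′. The deposited crossing counts were taken to leave out the outermost base of a read. The last kind is then missing from a position's own counts and was added back from the stops at its 5′ neighbour. The 4 shares, with the stop at the position itself, sum to 100% of the aligned reads that reached it, here called the reads reaching it. The base that such a last read put in is not seen.

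Over all 103 Ψ, with no choice by the size of the fall, stops differed by a median of -5.58 points of reads reaching the position. The mismatched share gained a median of 2.31 points, the stop 1 nt 5′ 2.15 and the matching share 0.270. With the reads of the 103 pooled, stops fell by 8.54 points, and the mismatched share gained 3.69, the matching share 2.64 and the next stop 2.22. So correct copying was no more than part of what the stops gave up. At the 1049 unlisted U the medians were -1.31 points for stops, 0.594 for mismatches, 0.548 for the next stop and 0.0310 for matching reads, and at A, C and G together the matching share had a median difference of -0.954 points.

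Positions called for a large fall gave more to correct copying. They were chosen by the fall, and the gains must sum to it. At the 54 Ψ with a called fall, the stops fell by a median of 12.6 points of reads reaching the position. The matching share gained a median of 5.03 points, the mismatched share 2.93 and the stop 1 nt 5′ 2.18. The matching share gained most at 34 of the 54, the next stop at 12 and the mismatched share at 8.

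At the 189 unlisted U with a called fall, mismatches took less. There the stops fell by a median of 7.99 points. The matching share gained a median of 5.10 points, the stop 1 nt 5′ 1.61 and the mismatched share 0.863. The largest gain was the matching share at 124, the next stop at 56 and the mismatched share at 9. By the deposited counts alone, the mismatched part of the fall in stops had a median of 22.7% at the 54 Ψ and 10.6% at the 189 unlisted U, against 14.1% at all 323 positions. That part was under 20% at 22 Ψ, from 20% to 50% at 22 and 50% or more at 10. For the unlisted U those counts were 145, 35 and 9.

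Ψ3844 of 28S had the largest fall of any Ψ, and matching reads took nearly all of it. Its stop share was 52.3% with magnesium and 12.8% with manganese, a fall of 39.5 points (95% interval of the difference -39.98 to -39.01), and in the mock pair it was 3.14% and 2.16%. Of the reads reaching it, those crossing with the matching base went from 47.2% to 85.1% and those with a mismatch from 0.134% to 1.23%. Ψ1582 of 28S had a like division. Its stop share was 41.5% with magnesium and 14.2% with manganese, its matching share went from 55.2% to 76.7% and its mismatched share from 0.393% to 2.94%. At Ψ815 of 18S the stop share was 51.7% and 25.6%, and reads that copied it and then stopped were 20.9% with magnesium and 21.3% with manganese. Its gain was in matching reads, 38.1% to 53.7%, and in mismatched reads, 0.169% to 4.82%.

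The other Ψ among the 6 largest falls divided their reads differently. Ψ3851 of 28S lies 7 nt from Ψ3844 and lost about as much, from 50.3% to 11.5%. Unlike at Ψ3844, 9.58% of reads reaching it were mismatched with manganese, against 0.638% with magnesium. Ψ4361 of 28S kept a high stop share, 44.5% after 70.4%, while reads stopping 1 nt 5′ of it went from 7.31% to 19.7%. At Ψ2632 of 28S the stop share was 47.1% and 21.7%, with 4.22% mismatched under manganese. None of these 3 passed 2.74% for stops in the mock pair.

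**Figure D2:**
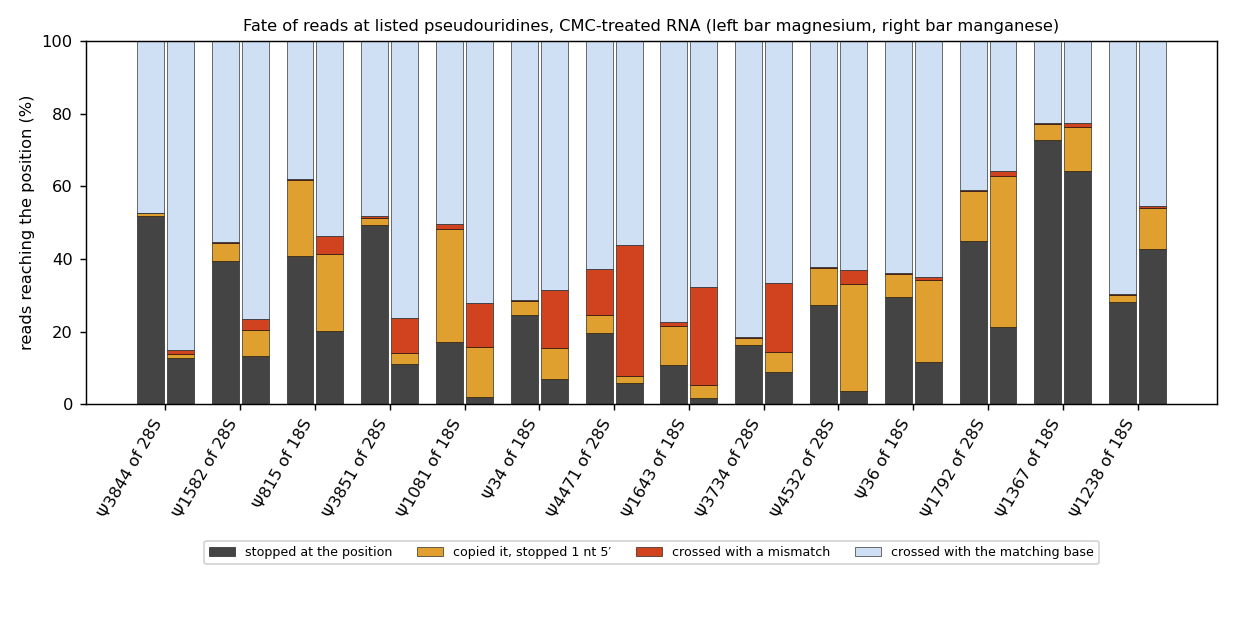
Stacked bars give the fate of all reads reaching 14 Ψ on CMC-treated RNA, in percent, with magnesium on the left and manganese on the right of each pair. The dark part is the stop at the position, which at Ψ3844 goes from 51.9% to 12.7%, and the red part is mismatched reads, which at Ψ1643 go from 0.859% to 27.04%.

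At some Ψ the rise in mismatches with manganese was larger than the fall in stops. Of these, 3 are described here. Ψ1643 of 18S had the largest rise in mismatch share, 1.10% with magnesium and 28.6% with manganese (difference 27.5 points, 95% interval 27.2 to 27.7), while its stop share fell from 12.2% to 1.81%. Reads that copied it and stopped at the next base also went down, from 10.8% to 3.57%, and matching reads from 77.5% to 67.7%. All 3 other fates thus gave way to the mismatch there. The mock mismatch shares were 0.110% and 0.387%.

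Ψ4471 of 28S was already misread with magnesium. Its mismatch share was 16.7% with magnesium and 39.1% with manganese, the highest among the Ψ, and its stop share 20.5% and 5.82%. Ψ3734 of 28S went from 0.587% to 22.3% mismatched with a smaller fall in stops, 16.5% to 9.29%. Matching reads fell there from 81.4% to 66.5% of those reaching it, so correct copying went down as well. These 3 sites had at most 0.387% mismatch in either mock library.

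At 36 of the 323 falls, mismatched reads gained 50% or more of what the stops lost, as shares of stops and crossing reads. Of these, 3 with stop falls of at least 10 points are given here. At Ψ34 of 18S the stops went from 24.6% to 6.80% of reads reaching it and the mismatches from 0.285% to 15.9%, while matching reads were 71.4% and 68.7%. Ψ36, close by on the 3′ side, lost stops without such a rise, as described below for stops that moved. At Ψ1081 of 18S the stop share fell from 24.7% to 2.15% and the mismatch share rose from 2.45% to 14.7%. Of all reads reaching it, stops went from 17.0% to 1.86% and those stopping 1 nt 5′ from 31.3% to 13.8%. Mismatched reads there rose from 1.27% to 12.4%, by 11.1 points. Matching reads rose by more, 21.6 points, from 50.4% to 72.01%. The unlisted U1225 of 28S had stop shares of 20.4% and 7.08% and mismatch shares of 3.53% and 10.997%, beside mismatch shares of 2.60% and 1.92% in the mock pair.

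Mismatch could also rise with no called fall in stops. This was the case at 24 U with no stop call and 2 with a higher one, of which 11 were Ψ. Ψ1692 of 18S kept its stop share, 8.01% and 6.83%, while its mismatch share went from 4.07% to 19.3%. Ψ1244 of 18S, with stops of 27.9% and 25.9%, went from 1.44% to 10.3% mismatched. Ψ1347 of 18S went from 0.555% to 15.1% with stops of 8.45% and 4.63%, a fall under the bar. These 3 Ψ were named after their values were seen. All 3 precede a G.

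Further Ψ had both a lower stop and a higher mismatch share. Ψ1625 of 18S went from 6.10% to 0.483% for stops and from 1.38% to 11.8% for mismatches, and Ψ109 of 18S from 24.5% to 5.91% and from 2.05% to 10.8%. Ψ4579 of 28S had stops of 17.1% and 2.48% with mismatches of 3.48% and 10.4%. At all 3, reads that copied the Ψ and then stopped were fewer with manganese, 1.78% after 9.18%, 14.8% after 23.8% and 5.71% after 11.6%. Ψ210 of 18S gave up stops to both kinds of crossing, matching reads going from 63.2% to 71.1% and mismatched reads from 0.384% to 7.72%. The adjacent Ψ814 and Ψ815 of 18S, which share reads, had mismatch shares of 9.90% and 8.23% with manganese after 0.643% and 0.441%. Apart from Ψ815, these were named after their values were seen.

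The base on the 3′ side, which the enzyme copies just before it meets the adduct, went with both measures. At Ψ before A (26 positions) the median stop share was 41.7% with magnesium and 27.7% with manganese, and 18 were called lower. Before U (29) the medians were 25.7% and 15.6%, with 19 lower, and before C (24) 16.03% and 10.2%, with 11 lower. Before G (24) they were 8.56% and 5.22%, with 6 lower. The fall in points was thus largest before A (median -9.02) and smallest before G (-2.70), and so was the share to start from. As a ratio of manganese to magnesium the order was another, with medians of 0.515 before U, 0.544 before C, 0.659 before G and 0.684 before A.

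Mismatches at Ψ followed the neighbour the other way. Ψ before G had the most mismatch calls, 12 of 24, against 5 of 26 before A, 5 of 24 before C and 5 of 29 before U. The median mismatch difference was 4.91 points before G, 3.34 before C, 2.72 before U and 2.17 before A. Of the 12 before G, 8 had no stop call. At the 6 Ψ before G with a called fall the mismatched part was 20% to 50% at 2 and 50% or more at 4, and at the 18 before A it was under 20% at 11. At unlisted U, mismatch calls were 5 of 308 before G, 5 of 162 before A, 1 of 357 before C and 10 of 222 before U. By calls G did not lead there. The median mismatch difference was still largest before G, 0.931 points, against 0.645 before U, 0.558 before C and 0.478 before A. These groups of positions were not tested against each other.

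**Figure D3:**
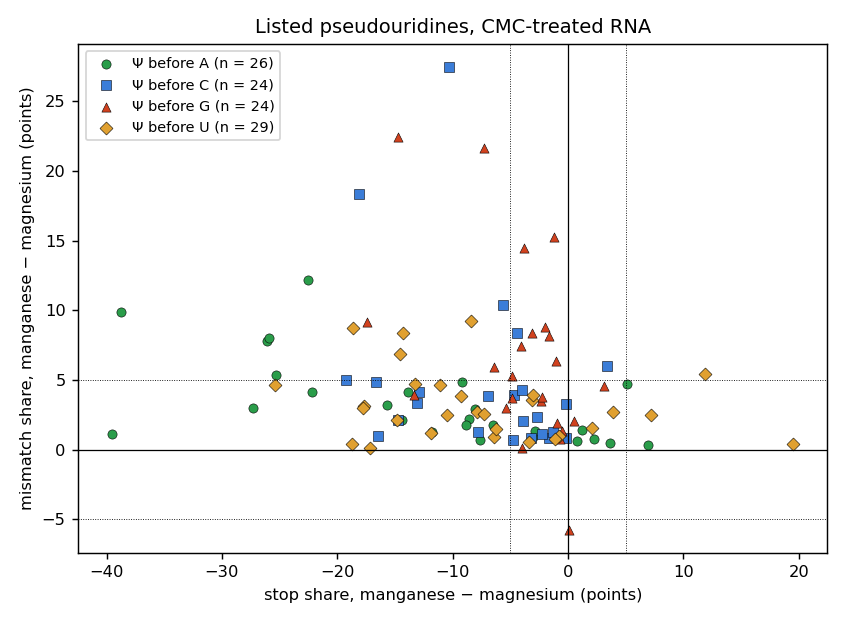
Each point is 1 of the 103 Ψ, placed by its difference in stop share (horizontal) and in mismatch share (vertical), manganese minus magnesium in points, with shape and colour for the base on its 3′ side and dotted lines at 5 points. Ψ before A reach furthest left, to -39.5 points at Ψ3844, and 12 of 24 Ψ before G lie above the 5-point line for mismatches.

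Where the adduct was passed without a mismatch also differed by neighbour. At the 18 Ψ before A with a called fall the matching share gained a median of 9.86 points of reads reaching the position and the next stop 2.35. At the 11 before C the matching share gained 1.02, the next stop 5.02 and the mismatched share 2.71. The 19 before U resembled those before A in order, with 5.13, 1.30 and 2.31 points in the same sequence of fates. Before G, the mismatched share gained 6.36 points, the next stop 2.46 and the matching share 0.676.

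Among unlisted U the fall in stops was also largest before A. Of those 162 positions 66 were called lower and the median difference was -3.65 points. Before U (222), G (308) and C (357) the counts lower were 48, 32 and 43 and the medians -1.50, -1.27 and -0.817. In the mock pair unlisted U before A also had a lower stop share with manganese, 2.54% after 4.45% with magnesium. Over all U before A, listed or not, the CMC difference of -3.85 became -2.37 points with the mock difference taken off, and over all U before U -1.79 became -2.10. Unlisted U before C, G and U differed in the mock pair by medians of 0.369, 0.217 and 0.215 points.

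**Figure D4:**
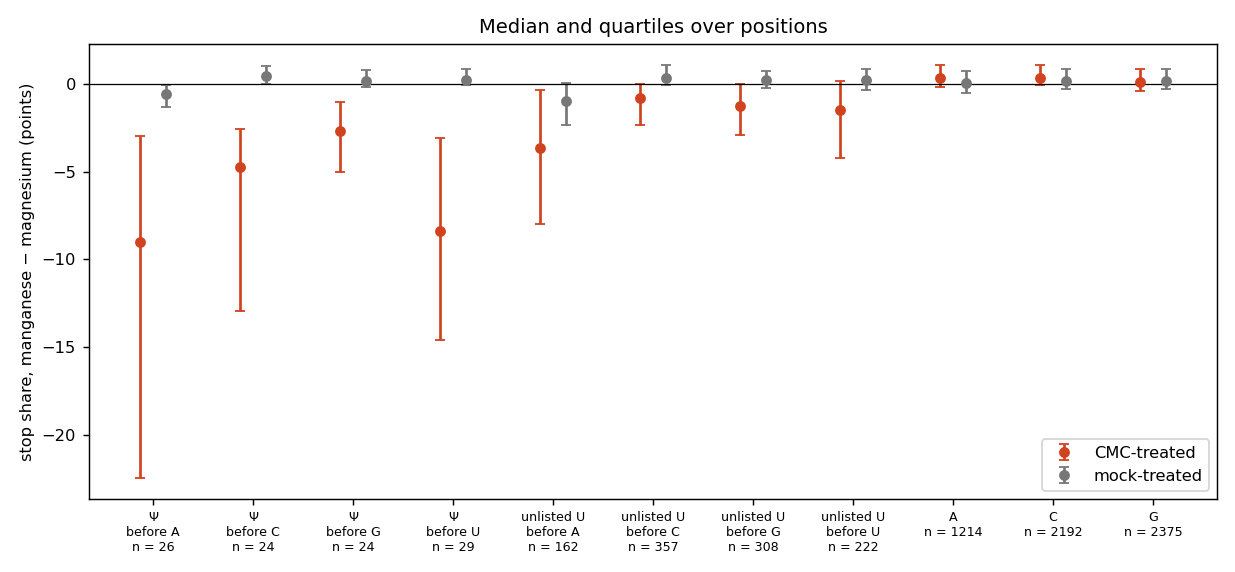
Points give the median and bars the quartiles over positions of the stop share difference, manganese minus magnesium in points, for Ψ and unlisted U by the base on the 3′ side and for A, C and G, on CMC-treated (red) and mock-treated RNA (grey). CMC medians at Ψ run from -9.02 before A to -2.70 before G, and the mock medians of all groups lie within 0.980 points of 0.

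Stops 1 nt 5′ of a fall were often higher with manganese. Of the 323 positions with a lower stop share, 78 (24.1%) had a called rise at the 5′ neighbour, against 3.56% of all positions, and 39 (12.1%) had a called fall there. On the 3′ side 12 (3.72%) had a rise. At Ψ the 5′ rise was no more frequent where stops fell. It was found at 27 (26.2%) of all 103 Ψ and at 13 (24.1%) of the 54 with a called fall. For unlisted U it was found at 115 (10.96%) of all 1049 and at 49 (25.9%) of the 189 with a called fall. Among the 244 U, the 5′ neighbour differed by a median of 1.36 points and the base 2 nt 5′ by 0.881, against 0.450 and 0.402 around U with no call. At the 99 of 323 falls with no other call within 3 nt, a choice that leaves out called rises next to a fall, the 5′ neighbour differed by a median of 0.336 points, against 1.21 at all 323. With stops at the position and 1 nt 5′ summed, 213 of the 323 were still lower by at least 5 points, with a median of -6.35 points. For Ψ this held at 42 of 54, and for unlisted U at 118 of 189.

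**Figure D5:**
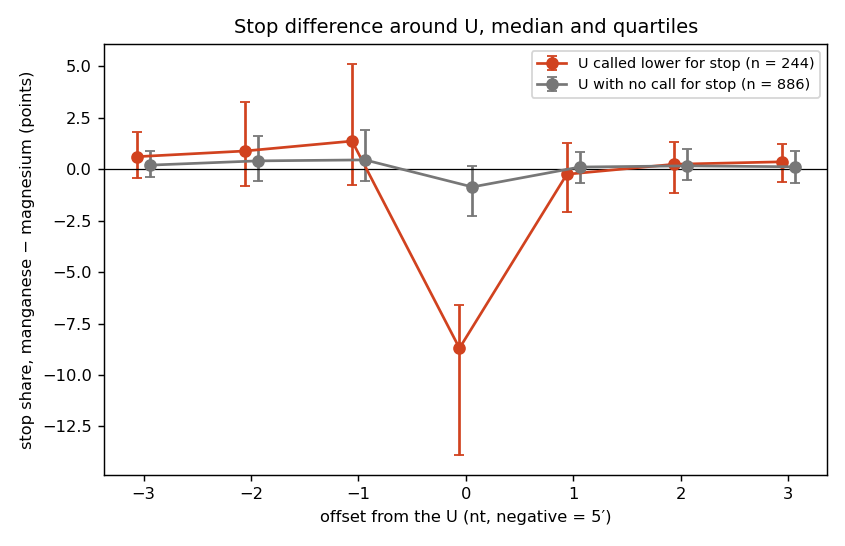
Lines give the median and bars the quartiles of the stop share difference, manganese minus magnesium in points, at 3 nt on each side of the 244 U with a called fall (red) and the 886 U with no call (grey). The difference of -8.70 points at the U, which the call selected, is followed on the 5′ side by 1.36 points at 1 nt.

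The largest such pair was U555 and C554 of 28S, an unlisted U in a pyrimidine tract. At U555 the stop share was 29.8% with magnesium and 6.79% with manganese, and at C554 it was 13.5% and 42.2%. Of the reads reaching U555, those that copied it and stopped at C554 went from 10.2% to 38.9%, so stops at either base together rose by 6.15 points. In the mock pair C554 had 8.05% and 8.56%. Ψ1792 of 28S went from 52.1% to 36.5%, and the U at 1791 from 26.002% to 53.4%. At both, more reads ended right after copying the U or Ψ.

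Other members with a rise at the 5′ neighbour are given here. U3468 of 28S fell from 29.9% to 5.62%, and the G before it rose from 14.8% to 38.5%. Matching reads at U3468 were 62.9% and 61.5% of those reaching it and mismatched reads 0.378% and 0.404%, so the fall went to the next stop. Ψ4532 of 28S fell from 30.5% to 5.20%, with 14.7% and 34.5% at 4531, and Ψ36 of 18S fell from 31.5% to 15.1%, with 11.5% and 26.5% at C35. Ψ1056 and Ψ686 of 18S had gains of the same kind. Reads stopping right after them went from 3.82% to 20.02% and from 10.2% to 25.96%. Sites in this paragraph other than U3468 were named after their values were seen, for the size of the rise at the 5′ neighbour.

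Read from the other side, rises lay next to U. Of the 247 positions with a higher stop share, 142 (57.5%) have U as the 3′ neighbour, against 16.6% of all positions. Of these 142 U, 62 were themselves called lower and 27 are Ψ. HIV adducts, as defined below, made up 107 of the 142, against 453 of all 1154 U. In 18S the count was 41 of 54 and in 28S 101 of 193. The 4 largest rises, all at C of 28S, were C1019 (8.99% to 46.6%), C838 (9.78% to 39.2%), C554 above and C4924 (6.08% to 34.6%). C1019 and C838 precede a G, not a U. Their mock values were 5.39% and 11.9%, 10.1% and 19.7%, 8.05% and 8.56%, and 5.996% and 11.8%, and all were higher with manganese there as well, by smaller amounts.

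Not every Ψ was passed more often with manganese. The stop share was called higher at Ψ1238 and Ψ1045 of 18S, Ψ801 of 18S, and Ψ1860 and Ψ3762 of 28S. At Ψ1238 it went from 28.6% to 48.2%, and reads stopping 1 nt 5′ rose too, from 2.10% to 11.5%. Matching reads there fell from 69.6% to 45.5%, and the mock stop shares were 6.62% and 10.1%. At Ψ1860 stops rose from 16.8% to 28.7% while the mismatch share also rose, from 1.96% to 7.39%. Ψ1045, Ψ801 and Ψ3762 rose by 7.20, 6.90 and 5.12 points.

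Several of the strongest stop shares changed by less than 5 points. Ψ1367 of 18S had the highest share of any Ψ under both cations, 76.2% and 73.1%, and Ψ822 of 18S went from 61.7% to 65.6%. Counted over all reads reaching it, the stop at Ψ1367 fell from 72.7% to 64.3% while the next stop rose from 4.59% to 12.1%, and at Ψ822 these were 60.03% and 59.3%, and 2.77% and 9.68%. Ψ649 of 18S was at 45.9% and 49.6%, and Ψ4312 of 28S at 47.6% and 49.8%. Without CMC these 4 lay between 7.35% and 12.9%. At the low end, Ψ93 of 18S had 1.08% and 1.64% with CMC, close to its mock shares of 1.23% and 2.04%. Ψ4521 of 28S was the 1 Ψ whose mismatch share was called lower, 16.8% with magnesium and 11.1% with manganese, with stops of 1.68% and 1.75%. These sites, apart from those called, were named after their values were seen.

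Positions where CMC changed the reads of HIV reverse transcriptase, called HIV adducts here, also divided between U, more often lower, and other bases, more often higher. HIV reads with CMC exceeded mock by a called 5 points for stops at 698 positions (10.1%) and for mismatches at 73 (1.05%), in all 721 positions, of which 453 are U. Neither library compared here entered that choice. At the 453 U the median stop share was 15.9% with magnesium and 9.29% with manganese, and 196 (43.3%) were called lower and 18 higher. At the 268 other positions (53 A, 93 C and 122 G) the medians were 6.27% and 8.90%, with 20 lower (7.46%) and 81 higher (30.2%). Over all tested positions, 21.1% of U were lower and 2.08% higher, and 1.37% of other bases were lower and 3.86% higher. At the 122 G, 13 were lower and 32 higher. A and C are not among the bases named above as modified by CMC, so these positions cannot be read as adducts of that base. By the 3′ neighbour of the U, 76 of 144 before A, 38 of 73 before C, 30 of 92 before G and 52 of 144 before U were lower. Of the 95 Ψ among these adducts 54 were lower, and of the 356 unlisted U 141 were.

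Among unlisted U the largest falls were at U827, U4031, U1030, U4838, U3468 and U5037 of 28S. U827 went from 59.5% to 13.9% and U4031 from 59.4% to 29.3%. U1030 went from 31.4% to 3.89%, U4838 from 40.4% to 14.1% and U5037 from 33.5% to 9.33%. None became mainly a mismatch, the highest mismatch share with manganese being 6.19% at U1030. Stops at the next base rose at U827 from 10.4% to 25.6% of reads reaching it and at U4031 from 1.83% to 14.4%. Some had stops without CMC: with magnesium the mock shares were 23.6% at U4031, 15.1% at U4838 and 12.7% at U1030, and with manganese 18.9%, 3.77% and 4.76%. At U827 the mock shares were 8.11% with magnesium and 13.7% with manganese, a called rise. U827 was crossed by only 1174 reads with magnesium and 1348 with manganese on CMC-treated RNA.

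At the other end, falls with almost no gain in mismatched reads were found at U344 of 18S, U868 of 28S and C3352 of 28S. U344 went from 23.1% to 11.7% for stops with a mismatch share of 0.137% and 0.210%. C3352 went from 32.7% to 16.1%, with 0.343% and 0.500% mismatched. U868 was misread throughout, at 19.5% and 14.6%, and at 15.9% and 8.38% without CMC. Its mismatched reads were 12.9% and 12.7% of those reaching it. U4807 and C4806 of 28S had the largest falls in mismatch share, 40.5% to 18.05% and 42.4% to 19.1%, and G4150 of 28S went from 24.1% to 12.3%. All 3 were misread without CMC too, at 36.96% and 19.7%, 41.3% and 23.7%, and 13.04% and 6.97%.

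Of the 79 called falls at bases other than U, 27 were called lower in the mock pair too. The 2 largest at each base are given here. A1850 of 18S is a dimethylated adenosine that itself blocks copying. It went from 89.4% to 37.1% with CMC and from 94.98% to 41.9% in the mock pair. C1247 of 18S, next to the modified U1248, went from 63.9% to 26.8%, and from 28.4% to 8.52% without CMC. C3187 and G1022 of 28S, at 32.1% to 8.62% and 21.2% to 5.63%, had like values without CMC, 32.3% to 14.1% and 28.02% to 6.75%. A1080 of 18S, next to Ψ1081, and G4156 of 28S differed from these. A1080 went from 38.04% to 14.7% with 5.40% and 4.78% in the mock pair, and G4156 from 35.8% to 8.83% with 5.44% and 1.58%.

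Of the modifications that disturb base pairing on their own, U1248 and A1322 differed between the cations with and without CMC. U1248 of 18S, a hypermodified Ψ with a methyl and an aminocarboxypropyl group, had a stop share of 68.1% with magnesium and 3.68% with manganese. Its mock shares were 26.8% and 1.85%, and its mismatch share was 59.6% and 50.4% with CMC. Counted over all reads reaching it, mismatched reads rose from 12.7% to 37.4% and matching ones from 8.61% to 36.7%, so the lower share among crossing reads goes with more crossing of both kinds. A1322 of 28S, a methylated adenosine whose pairing edge is blocked, had stops of 79.9% and 63.2% and mismatches of 14.3% and 32.03%. Its mock values were close, 87.2% and 77.5% for stops and 19.01% and 34.1% for mismatches.

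U4530 of 28S, a methylated uridine also blocked at that edge, moved the other way for stops, and only with CMC. Its stop share was 4.99% with magnesium and 17.7% with manganese, and 2.03% and 2.15% without CMC. Its mismatch share was 31.7% and 28.9% with CMC, and 32.4% and 27.4% without. It lies 2 nt 5′ of Ψ4532, where stops fell. The remaining 8 listed modifications, all on A, C or G, had stop differences between -1.24 and 1.19 points. Among them A1851 of 18S, the dimethylated neighbour of A1850, had a mismatch share of 0.667% with magnesium and 6.26% with manganese, and of 0.748% and 4.34% without CMC. Its stop share with CMC was 0.185% and 0.0313%, and at U1854, further 3′, it was 0 with both cations. Whether stops can be seen this near the 3′ end of 18S was not tested.

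Mismatch rises at bases other than U often lay at positions also misread without CMC. Of the 77 called, 42 had a mock mismatch share of at least 5% in a library of the pair, against 3 of the 48 U. The largest, C3 and C2205 of 28S and A2 of 18S, went from 1.22% to 22.3%, 4.09% to 23.7% and 1.03% to 20.5%, and without CMC they differed by 28.2, 16.7 and 9.20 points. C3 and A2 lie at the 5′ ends of their rRNAs.

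The base read in place of Ψ was mainly C under both cations. Bases here and below are given in the sense of the rRNA reference, so the enzyme inserted the complement. Over the mismatched reads of all 103 Ψ, C made up 76.8% with magnesium and 69.96% with manganese, and A 16.4% and 20.9%. C led at 81 and 75 of the 103 sites, and A at 17 and 18. C was also the main base without CMC and at other U. In the mock pair it led at 86 and 82 of the 103 Ψ, with 51.6% and 47.5% of their mismatched reads. At the unlisted U with CMC it led at 727 and 634 of 1049, with 50.7% and 46.7%. Single sites differed in the base. With manganese 28.4% of reads crossing Ψ1643 held C, after 1.04% with magnesium, while at Ψ1081 it was A, 14.3% after 2.22%.

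At A and G the kind of mismatch differed with the cation. Over pooled reads at G, T made up 20.3% of mismatched reads with magnesium and 57.9% with manganese, and A 67.7% and 30.2%. As a mean over positions of G, T was 33.2% and 57.3%, and A 38.9% and 24.5%. At A, pooled T went from 41.8% to 73.2%. Without CMC the pooled shares of T were 23.8% and 64.3% at G and 45.9% and 78.3% at A. These differences were not tested.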

How the data were processed

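Reads of CMC-treated and mock-treated rRNA were compared between cations at each position. Per the submitters' processing notes, the tools included Trimmomatic 0.32 and Bowtie 1.00. Their settings and the reference's origin are not given in these sources. Bowtie 1 makes alignments without gaps, so deletions at an adduct are not seen. For each library and rRNA the authors deposited counts of reads crossing each position, in all and by base, and counts of stops, whose unit is entered as other because the column name reads as a coordinate. They also deposited the mismatch rate and stop frequency as fractions, which were recomputed here from the counts as percent and agreed within 1e-09. No normalization is applied to these counts, and they are not separated by rDNA copy.

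Stop placement was checked. At the start of each of the 12 tables, position 3 has more crossing reads than position 2 by the stop count of position 1, and at 0 positions further on does the crossing count go up by more than such stops permit. This was taken to mean that stops sit at the base not copied and that a read's outermost base is not counted as crossing. The check fixes how stop and crossing counts line up, but cannot show which base was copied last.

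Positions crossed by 100 or more reads in each library were tested with Fisher's exact test (scipy 1.17.1) after a check on simulated data, and called as the text states. The modified positions were written from general knowledge (104 Ψ, of which 103 fall on U and 1 does not, and 12 other modifications); the list may be incomplete. The members, lists and measures were chosen with earlier results of these data known. Named sites are the 6 Ψ, 6 unlisted U and 2 each of A, C and G with the largest fall in stops, the 4 largest rises, the 6 largest rises and 3 largest falls in mismatch, the 5 largest and 5 smallest mismatched parts where stops fell by at least 10 points, and all other modifications. Alternatives were other bars, minimum reads of 1000, the mock difference taken off, each rRNA alone, stops of neighbours summed, means or pooled reads, and other choices of adducts. Whether HIV RT reads were trimmed alike is not given.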

Additional observations from a re-analysis of the deposited data

Results flagged for a closer look

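The median stop share difference at the 1154 U, manganese minus magnesium, was -1.54 points on CMC-treated RNA and 0.168 points on mock-treated RNA. The pairs thus point in opposite directions. There is 1 library per combination, and the difference between the pairs was not tested.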

How the results depend on the processing

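No paired analysis was possible because each group has 1 library, and for the same reason no replicate could be left out. Counts move with the bar. At 2 points 783 positions were lower and 822 higher for stops, and 815 higher and 19 lower for mismatches, and at 10 points the counts were 114, 70, 20 and 3. In the mock pair the stop counts were 436 and 559 at 2 points and 25 and 20 at 10 points. Taking off the mock difference left 56 positions higher and 22 lower for mismatches, and keeping only positions under 5% mock mismatch, an alternative chosen after seeing the data, left 80 and 1. In 18S alone 0.0536% of positions were lower for mismatches.

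The median mismatched part of the fall in stops was 21.1% at 2 points, 10.2% at 10 points, 10.7% with the mock difference taken off and 18.8% with reads pooled. With reads stopping 1 nt 5′ added to the divisor, also chosen after seeing the data, it was 13.1%, and the stop calls were 303 lower and 223 higher. The median at the 5′ neighbour was 0.336 points at the 99 falls with no other call within 3 nt.

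As a mean over positions, the stop difference was -2.95 points at U, and -5.55, -2.45, -2.15 and -2.80 before A, C, G and U, and 0.579, 0.765 and 0.326 at A, C and G. With the mock difference taken off, the medians in the same order were -1.69, -2.37, -1.50, -1.56, -2.10, 0.189 and 0.125, and at G the sign turned to -0.0672. The cause was not tested. At HIV RT adducts of 10 points the median stop and mismatch differences were -3.08 and 1.23 points, and at adducts chosen with the magnesium libraries, which share a library with the comparison, -3.94 and 0.962. As a mean over sites, C made up 61.7% of mismatches at Ψ with magnesium and 60.8% with manganese. The other 22 values changed by no more than the set limits, which are wide. Among them, with stops at the position and 1 nt 5′ summed, 483 positions were lower and 359 higher, against 323 and 247. Depth limits little at Ψ, but at all positions the widest interval of a stop difference was ±6.78 points.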
